A study of Mus musculus with 14 samples.

Results

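The Gadd45 family and the TET enzymes were followed in 14 RNA-seq libraries of cultured mouse cortical neurons. The 6 genes Gadd45a, Gadd45b, Gadd45g, Tet1, Tet2 and Tet3 were found by symbol among the 52459 gene symbols of the deposited matrices, and all 6 passed the filter on low counts that left 17732 genes for testing. Neurons came from E16.5 embryos. Cultures were silenced with 1 µM TTX, a sodium channel blocker, and 100 µM APV, an NMDA receptor blocker, at 5 days in vitro, and depolarising cultures received 50 mM KCl for 1 h at 6 days. The labels give the other cultures a basal level of KCl, and whether these also received the blockers is not spelled out for each sample. SA neurons carried the knock-in substitution S1382A of BRG1, the motor subunit of BAF chromatin remodellers, and SE neurons carried S1382E. The wild-type neurons were littermates of one or the other, and are called here the wild type of the SA line or of the SE line. SA, SE and the SA-line wild type had 2 libraries per treatment, and the SE-line wild type had 1. The labels do not say whether mutant embryos were homozygous, or whether replicates came from separate embryos, so p-values measure the spread between these libraries. A point substitution cannot be read from expression values, and genotypes were taken from the labels.

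TET enzymes oxidise 5-methylcytosine in DNA, and thymine DNA glycosylase and base excision repair can then restore an unmodified cytosine. GADD45 proteins are small acidic nuclear proteins without known enzymatic activity. They bind partners such as PCNA, the p21 protein, the CDK1 and cyclin B kinase complex and the MAP kinase kinase kinase MTK1 (Map3k4), and they have been tied to active DNA demethylation. In neurons Gadd45b is known as an early gene that follows synaptic activity, while Gadd45a is a classical target of p53.

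Gadd45b and Gadd45g were the members that rose after KCl, so the 250 bases before their RefSeq start sites are shown, read 5′ to 3′ on the plus strand of GRCm38.p6. Capitals mark CCAAT boxes (CCAAT, either strand) and TATA boxes (TATAAA, either strand).
Gadd45b, chr10:80929841-80930090: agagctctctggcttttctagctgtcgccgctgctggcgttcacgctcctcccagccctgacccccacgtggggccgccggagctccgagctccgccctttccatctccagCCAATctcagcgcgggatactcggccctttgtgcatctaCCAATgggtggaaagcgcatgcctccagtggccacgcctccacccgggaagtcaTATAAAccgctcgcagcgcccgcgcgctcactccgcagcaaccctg
Gadd45g, chr13:51846425-51846674: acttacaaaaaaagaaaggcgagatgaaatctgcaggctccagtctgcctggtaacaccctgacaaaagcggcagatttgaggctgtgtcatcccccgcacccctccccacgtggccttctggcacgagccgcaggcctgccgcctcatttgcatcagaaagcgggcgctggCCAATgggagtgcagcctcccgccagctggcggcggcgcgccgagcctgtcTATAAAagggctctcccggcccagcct

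Both windows held a TATA box, which began 46 bases before the RefSeq start of Gadd45b and 27 bases before that of Gadd45g. The GENCODE start of Gadd45b, chr10:80930073, lies inside its printed window, so distances given for this gene depend on the annotation. Among 32544 distinct RefSeq promoter windows of 300 bases (250 before to 50 after the start), 13.6% held TATAAA on either strand. Boxes of the CCAAT type began 139 and 100 bases before the start of Gadd45b and 78 bases before that of Gadd45g, and 37.4% of all windows held 1 or more. Gadd45a had a CCAAT box 86 bases before its start, and Tet3 had 1 on the minus strand, from 31 to 27 bases before its start. No TATAAA was in the windows of Gadd45a or the Tet genes. The Tet1 window lies at the start of transcript Tet1-207 (chr10:62887324), which held 3.63% of the gene's TPM on average. Tet1-206 (35.7%) and Tet1-201 (25.9%) start at chr10:62899118 and chr10:62880014, and motifs were not searched there. Other motifs were searched on both strands. The full cyclic AMP response element, TGACGTCA, was in no member's window and in 1.8% of all windows. Its core TGACG, which every full element contains, was in neither printed window, in 1 member (Tet2) and in 20.9% of all windows. The AP-1 site TGANTCA (7.79% of all windows) and the CArG box (1.64%) were in no member's window. The 300-base window of Gadd45b held 24 CpG dinucleotides, that of Gadd45g 21, and that of Gadd45a 14, against a median of 7 over all windows. Those of Tet1, Tet2 and Tet3 held 17, 57 and 22. Of all windows 81.4% held no more than Gadd45b, 76.7% no more than Gadd45g and 99.9% no more than Tet2.

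The 6 genes differ in size and place. In the GENCODE M21 annotation of GRCm38, Gadd45b (ENSMUSG00000015312.9) spans chr10:80930073-80932204 on the plus strand, Gadd45g (ENSMUSG00000021453.2) spans chr13:51846678-51848468 on the plus strand, and Gadd45a (ENSMUSG00000036390.8) spans chr6:67035096-67037457 on the minus strand. The Tet genes are far longer and lie on minus strands, with Tet1 (ENSMUSG00000047146.17) at chr10:62804570-62908996, Tet2 (ENSMUSG00000040943.12) at chr3:133463679-133545139 and Tet3 (ENSMUSG00000034832.15) at chr6:83362373-83459084.

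Libraries held 22625916 to 23096206 estimated counts, and a member's count in a library ran from 53.03 for Gadd45a to 3944 for Gadd45b. The lines stood apart: the first principal component of log2 expression held 65.5% of the variance and separated SA-line from SE-line libraries, mutant and wild type alike. Markers of glutamatergic neurons summed to 453 to 764 CPM (counts scaled to library size) in basal SA-line libraries and 1898 to 2013 CPM in basal SE-line libraries. All other lists summed lower in the SE line, with no overlap: GABAergic neurons 149 to 161 CPM against 415 to 491, astrocytes 384 to 411 against 1772 to 2449, neural progenitors 52.0 to 61.0 against 314 to 665, and the oligodendrocyte lineage 80.2 to 98.7 against 471 to 610. Microglia (12.5 to 17.5 CPM against 55.3 to 63.2), meningeal fibroblasts (15.0 to 25.7 against 71.5 to 143) and endothelial and mural cells (5.37 to 7.53 against 17.4 to 32.2) were sparse. Of the 41 markers 40 passed the filter, and none of these was at 0 in any basal library. Wild-type culture 1 of the SA line also stood apart on the second component. Results that rest on it, other than correlations between genes, are given without it as well. Libraries that share group and number are called a culture, which the labels do not state. In these bulk cultures, fewer cells of a type and less RNA per cell cannot be told apart.

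Levels of different genes are compared in TPM (transcript abundance corrected for length). In basal SA-line libraries the medians of 4 libraries ran from Gadd45g (16.48 TPM) through Tet3 (11.1), Tet2 (8.96), Tet1 (7.07) and Gadd45a (5.33) to Gadd45b (4.87). Each neighbouring pair in that order overlapped between libraries. In the 3 basal SE-line libraries Gadd45a came first with a median of 24.4 TPM, above the range of every other member. Tet3 (13.5 TPM) and Gadd45g (12.5 TPM) overlapped there, Tet1 followed at 10.6 TPM, and Tet2 (4.92 TPM) overlapped with Gadd45b (4.60 TPM). After KCl, Gadd45b and Gadd45g came first in both lines, at medians of 79.5 and 57.35 TPM in the SA line and 220.2 and 136 TPM in the SE line. Gadd45b thus went from the lowest basal median of the 6 genes to the highest after 1 h of KCl, in each line. In the SA line Gadd45b (52.0 to 86.1 TPM) and Gadd45g (50.5 to 69.5 TPM) overlapped after KCl. There, wild-type library 1 held more Gadd45g (62.6 TPM) than Gadd45b (52.0 TPM).

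**Figure D1:**
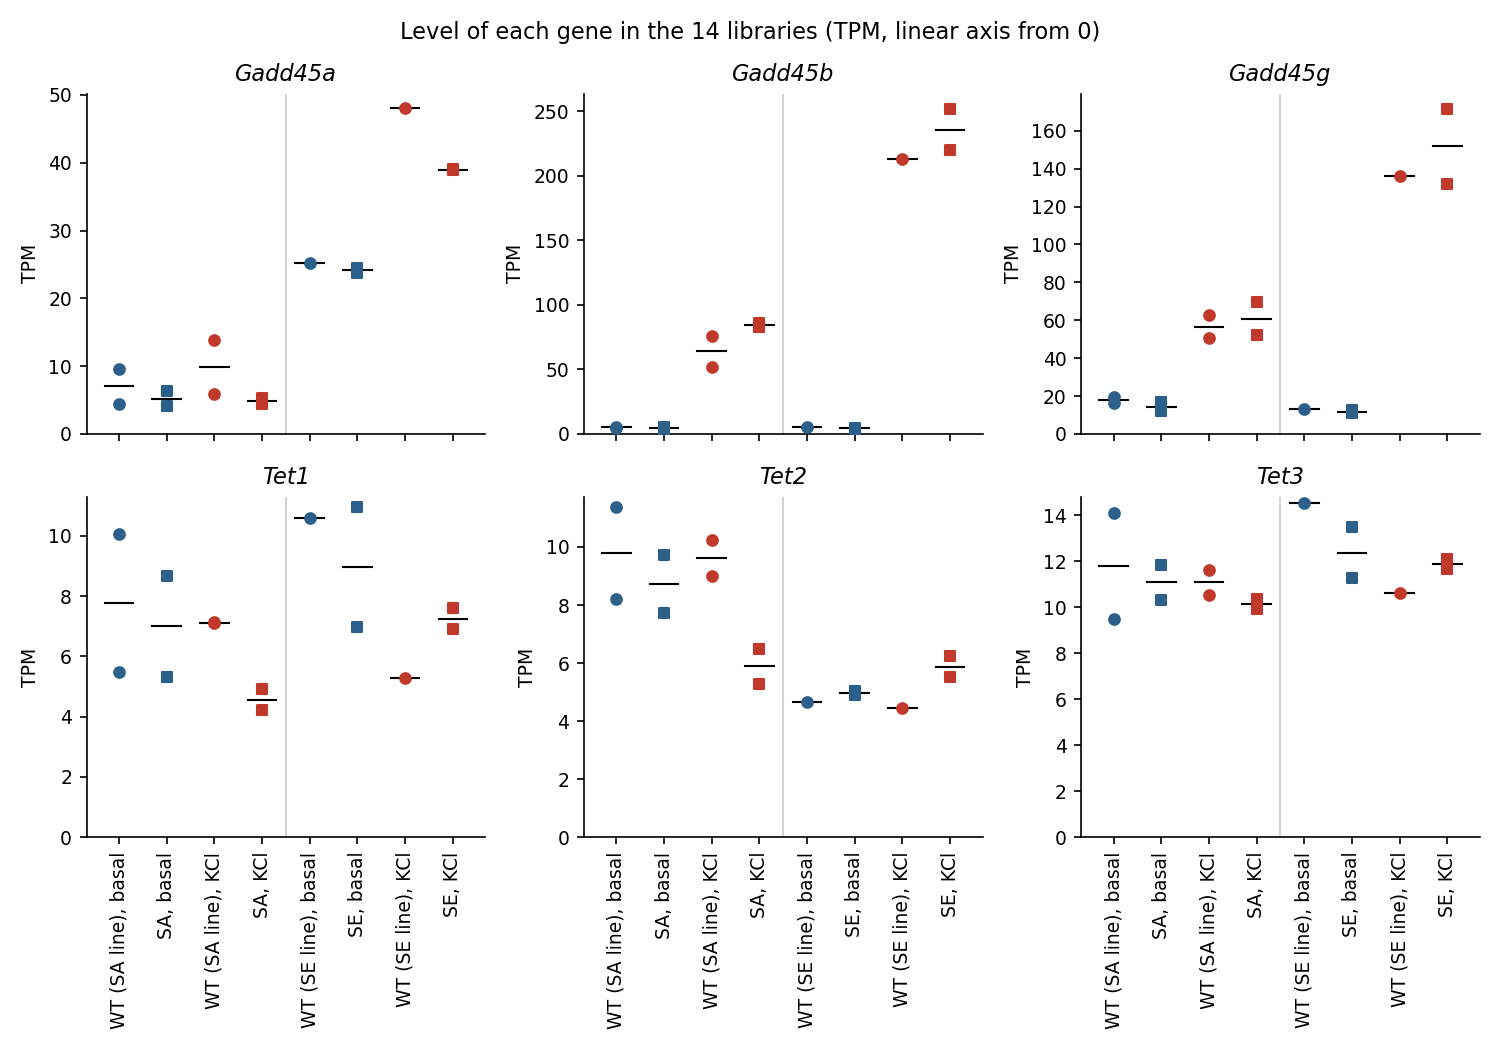
Level of each gene in TPM (linear axes from 0) in the 14 libraries, by group; blue is basal, red is KCl, circles are wild type, squares are mutant, and lines mark group means. Gadd45b and Gadd45g are higher in every KCl library than in any basal library, Gadd45a is higher in every SE-line library than in any SA-line library, and the Tet genes lie between 4.21 and 14.6 TPM throughout.

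Gadd45b rose after KCl in every genotype. Wild-type libraries of the SA line held 5.65 and 4.62 TPM at basal and 52.0 and 75.8 TPM after KCl, and the SE-line wild type went from 5.51 to 213 TPM. SA libraries held 3.74 and 5.12 TPM at basal and 83.2 and 86.1 TPM after KCl. SE libraries held 4.04 and 4.60 TPM at basal and 251 and 220.2 TPM after KCl. No KCl library came near a basal one. The rise fitted by edgeR was 17.7-fold in wild type (log2 4.14 ± 0.20 SE, adjusted p = 2.67e-06), 19.7-fold in SA (4.30 ± 0.24, adjusted p = 1.65e-05) and 49.4-fold in SE (5.63 ± 0.25, adjusted p = 2.08e-06). The wild-type value pools both lines. Between same-numbered libraries the log2 ratio of TPM was 3.20 and 4.04 in the SA-line wild type and 5.27 in the SE-line wild type, so the 3 folds do not set genotypes side by side. In wild type it was the 14th of 17732 genes by p and the 25th by fold rise.

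Gadd45g, which started from a higher basal level, rose less. Wild-type libraries of the SA line held 19.7 and 16.3 TPM at basal and 62.6 and 50.5 TPM after KCl, and the SE-line wild type went from 13.2 to 136 TPM. SA libraries went from 12.3 and 16.6 TPM to 52.1 and 69.5 TPM. SE libraries went from 11.1 and 12.5 TPM to 172 and 132 TPM. Basal and KCl libraries did not overlap here either. The fitted rise was 4.78-fold in wild type (log2 2.26 ± 0.19, adjusted p = 1.61e-04), 4.34-fold in SA (2.12 ± 0.23, adjusted p = 0.00181) and 12.7-fold in SE (3.67 ± 0.24, adjusted p = 2.53e-05). The wild-type value again pools both lines, with log2 ratios of TPM of 1.67 and 1.63 in the SA-line wild type and 3.37 in the SE-line wild type. In wild type it ranked 43rd by p.

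Gadd45a, the p53-responsive member, did not pass the test of group means over the 14 libraries in any genotype, with the smallest adjusted p at 0.864. In the SE line it held 24.4 and 23.8 TPM in basal SE libraries and 25.2 TPM in the basal wild type, and 39.1, 38.9 and 48.0 TPM after KCl, without overlap. In the SA line its values overlapped: SA libraries held 4.06 and 6.28 TPM at basal and 4.37 and 5.36 TPM after KCl. Wild-type culture 1 of that line held 9.66 and 13.8 TPM, and culture 2 held 4.38 and 5.87 TPM. The log2 difference between KCl and basal was 0.63 in wild type (95% interval -0.15 to 1.42), -0.05 in SA (-1.09 to 0.99) and 0.65 in SE (-0.27 to 1.57). These calls depended on the fit. Between same-numbered libraries the log2 ratio of Gadd45a TPM was 0.52 and 0.42 in the SA-line wild type and 0.93 in the SE-line wild type. It was 0.68 and 0.71 in SE, and 0.1 and -0.23 in SA. With a replicate block, which treats same-numbered libraries as paired, Gadd45a was called in wild type (adjusted p = 0.00234) and in SE. The labels do not state such a pairing. When only the 6 SE-line libraries were fitted, the SE difference of 0.66 passed the test at an adjusted p of 0.00139.

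The Tet genes did not pass the test of group means after KCl in any genotype. Tet1, which carries a CXXC domain that binds unmethylated CpG, held 5.33 to 8.67 TPM in basal SA libraries and 4.93 and 4.21 TPM after KCl, without overlap. Its log2 difference was -0.28 in wild type, -0.62 in SA (95% interval -1.16 to -0.07, adjusted p = 0.693) and -0.30 in SE. With the replicate block Tet1 was called in SA (adjusted p = 0.0253). Tet2, which lacks that domain, differed by 0.04 in wild type, -0.36 in SA and 0.16 in SE. Tet3, the most highly expressed of the 3 in both lines, differed by -0.18 in wild type, -0.04 in SA and -0.09 in SE, with a 95% interval in wild type of -0.47 to 0.11.

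As background to these counts, 1.41% of genes were called after KCl in wild type (250 genes, of which 186 rose), 0.846% in SA (150 genes) and 1.66% in SE (295 genes), at an adjusted p under 0.05. Of the 6 members 2 were called in each of the 3 comparisons, Gadd45b and Gadd45g, both as rises. The median log2 change over all genes was 0.01 in wild type.

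**Figure D2:**
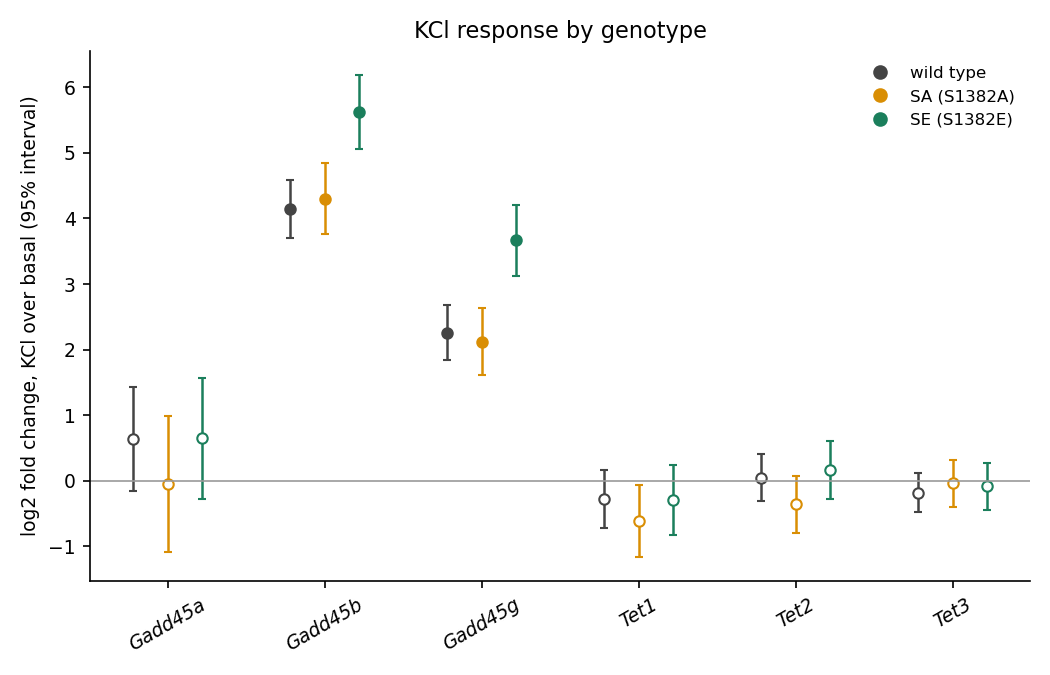
Log2 fold change of KCl over basal for each gene in wild type, SA and SE, with 95% intervals from the edgeR model; filled points passed an adjusted p of 0.05. Gadd45b and Gadd45g are filled in all 3 genotypes, with the highest points in SE, and the intervals of Gadd45a and the Tet genes reach 0 except that of Tet1 in SA.

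The called transcript models belonged to the same 2 genes. Gene values are the sums of these transcript values, so this is no separate evidence. Gadd45b-201, the protein-coding model of 4 exons, held 79.8% to 100% of the gene's TPM over the 14 libraries, and Gadd45g-201, also of 4 exons, held 93.3% to 97.4%. Both were called in all 3 genotypes, with Gadd45b-201 at log2 changes of 4.07, 4.29 and 5.49 and Gadd45g-201 at 2.26, 2.13 and 3.63. Gadd45b-202, a retained-intron model at chr10:80930812-80931759, held 0 to 0.532 TPM in the 7 basal libraries. After KCl it held 4.41 to 7.20 TPM in the SA line and 26.1 to 35.5 TPM in the SE line. It was called in wild type (adjusted p = 0.0241) and SE (adjusted p = 0.0142) and not in SA (adjusted p = 0.206), and this difference between genotypes was not tested. Among 47808 transcripts tested, 0.456% were called in wild type, 0.197% in SA and 0.535% in SE, and of the members' transcripts 3, 2 and 4 were called. The 4th in SE was Gadd45g-202, a retained-intron model that held 0.329 and 0.322 TPM in basal SE libraries and 8.42 and 5.78 TPM after KCl.

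Retained-intron models took a larger share of Gadd45b after KCl in the SE line, 11.9% to 14.1% of its TPM, than in the SA line, 7.01% to 9.50%, without overlap. Basal shares rested on at most 4.32 estimated counts per library. For Gadd45g the shares after KCl, 4.02% to 5.60% and 4.37% to 4.91%, overlapped between the lines. Gadd45a had the largest retained-intron shares of the family, from 10.03% to 31.8% in the SA line and from 18.1% to 31.2% in the SE line. The SA-line shares of Gadd45a rested on 4.29 to 14.9 estimated counts per library, and the SE-line shares on 34.8 to 110.1. The Tet genes differed in how their TPM was divided. Tet3-202 held 91.8% ± 2.88 (SD, n = 14) of the TPM of Tet3, and Tet3-203 held most of the rest (7.90%). Tet2-201 held 50.2% ± 13.0 of Tet2, beside Tet2-204 at 10.6% and 4 retained-intron models at 5.58% to 9.43%. Tet1 had 4 models above 5%, led by Tet1-206 at 35.7% ± 13.0 and Tet1-201 at 25.9% ± 15.2, and the spread of both was wide between libraries. How kallisto divided reads between such overlapping models was not checked against the reads here.

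**Figure D3:**
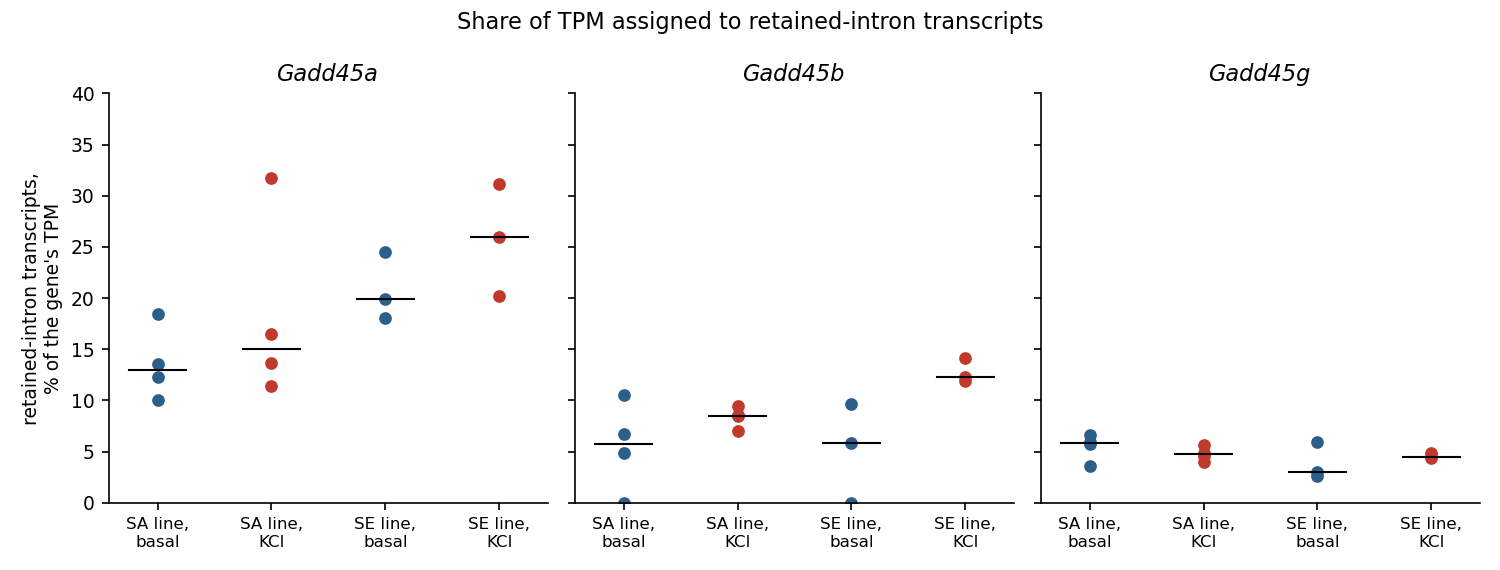
Percent of each Gadd45 gene's TPM that was assigned to retained-intron transcripts, by line and treatment; each point is a library and the line is the median of 3 or 4. For Gadd45b after KCl the SE-line points (11.9% to 14.1%) lie above the SA-line points (7.01% to 9.50%).

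The comparison of each mutant with its littermate wild type asks whether the residue bears on these genes. No member passed the test in any of the 6 comparisons, in which 0% of the 17732 genes were called: SA and SE against wild type at basal, after KCl, and for the difference in KCl response. edgeR gave 1279 and 2040 genes with an unadjusted p under 0.05 for SA at basal and after KCl, 187 and 240 for SE, and 122 and 159 for the differences in response of SA and SE. If no gene differed, such a p would be expected for a share of 0.05 of the 17732 genes. The counts for SA at basal and after KCl lay above that level, and all the others lay below it. The test was thus cautious in those others, and the lack of calls there does not show that mutant and wild type were alike. DESeq2 called 119 genes for SA against wild type after KCl, none of them a member. The SE comparisons rest on a single wild-type library per treatment, whose spread was assumed to be that of the other groups.

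Among the values that did not pass, Tet2 after KCl had the lowest unadjusted p of the members. It held 6.49 and 5.28 TPM in SA and 8.99 and 10.2 TPM in the wild type, a log2 difference of -0.63 ± 0.19 (95% interval -1.06 to -0.19, adjusted p = 0.348). Tet1 held 4.93 and 4.21 TPM in SA and 7.11 and 7.13 TPM in the wild type after KCl, a difference of -0.64 ± 0.24 (-1.18 to -0.09, adjusted p = 0.395). The libraries did not overlap for either gene. At basal both overlapped, with differences of -0.25 for Tet2 and -0.10 for Tet1, and the differences in KCl response were -0.38 and -0.53, with intervals that include 0. Tet3 differed by 0.03 at basal and 0.02 after KCl (95% interval -0.34 to 0.38).

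Gadd45b after KCl was at 83.2 and 86.1 TPM in SA and 52.0 and 75.8 TPM in the wild type, without overlap. The log2 difference was 0.53 ± 0.20 (95% interval 0.08 to 0.98, adjusted p = 0.396), and the difference in KCl response was 0.69 (-0.03 to 1.41). The lower wild-type value came from culture 1, and without that culture the values fell to 0.26 and 0.23. Gadd45a differed by -0.92 after KCl (-1.93 to 0.09), and by -0.21 without that culture, whose 9.66 and 13.8 TPM were the highest values in the SA line. Gadd45g overlapped between SA and wild type after KCl, and its difference in response was 0.42 (-0.28 to 1.12).

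In SE against its wild type the 6 members differed by -0.32 to 0.07 at basal and by -0.31 to 0.19 after KCl on the log2 scale. Their differences in KCl response lay between -0.26 and 0.42. Intervals were wide: that of Gadd45b ran from -0.44 to 1.29 and that of Gadd45a from -1.85 to 1.32. These intervals do not show that mutant and wild type were alike.

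**Figure D4:**
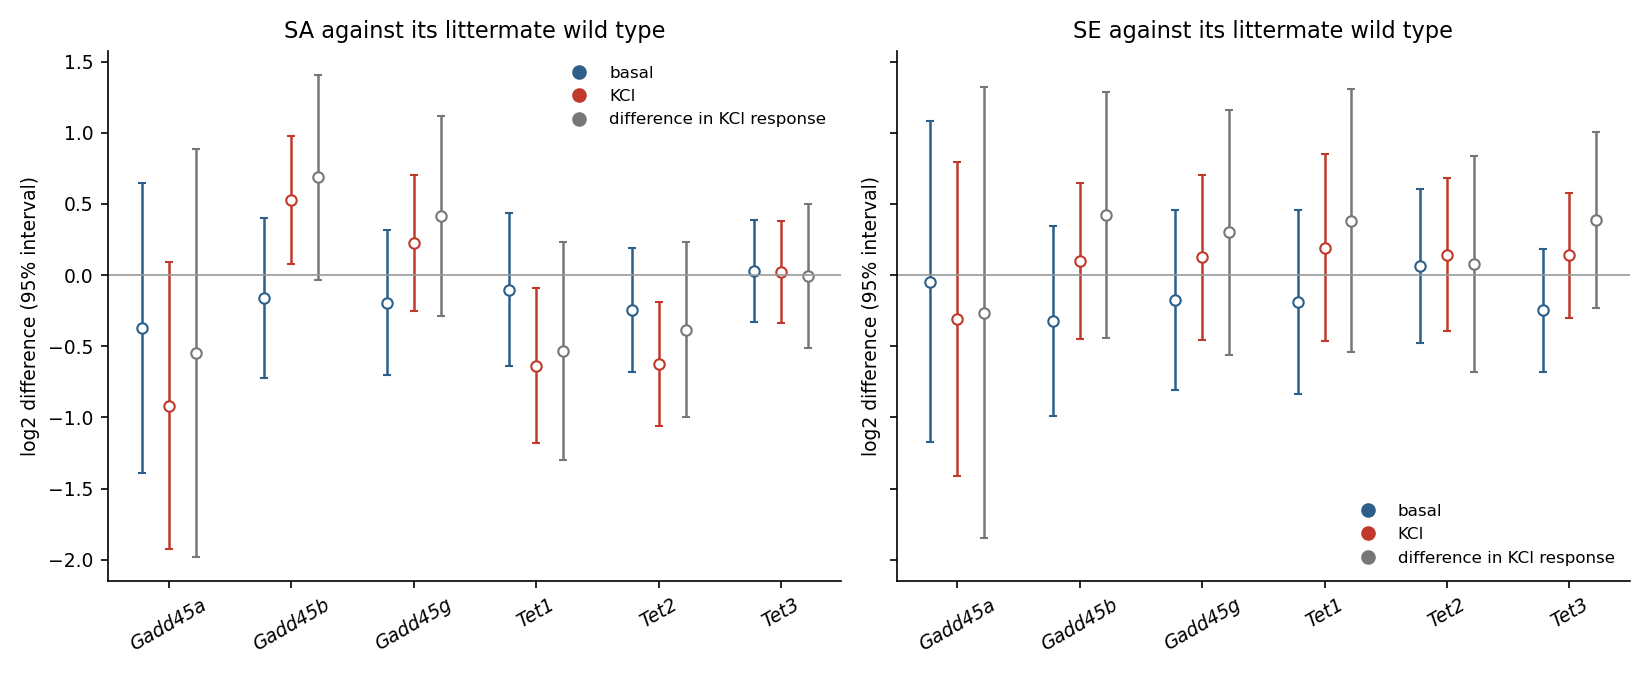
Log2 difference of SA (left) and SE (right) from their littermate wild type at basal, after KCl and for the KCl response, with 95% intervals from the edgeR model; open points did not pass an adjusted p of 0.05. All points are open, and the intervals of Gadd45b, Tet1 and Tet2 in SA after KCl do not reach 0.

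The lines differed for 4 of the 6 members at basal, among 47.8% of all genes called. Gadd45a was 4.49-fold higher in the SE line (log2 2.17 ± 0.33, adjusted p = 5.65e-04). Its 3 SE-line libraries held 23.8 to 25.2 TPM, and the 4 SA-line libraries held 4.06 to 9.66. Tet1 was 1.73-fold higher in the SE line (0.79 ± 0.18, adjusted p = 0.00535), with 47.7 to 62.7 CPM against 25.2 to 39.8 CPM. Tet3 was 1.34-fold higher (0.42 ± 0.12, adjusted p = 0.0175), with 88.1 to 113 CPM against 62.6 to 87.2 CPM. Tet2 was 1.45-fold lower (-0.54 ± 0.15, adjusted p = 0.0149), with 19.7 to 23.9 CPM against 23.7 to 38.0 CPM, which overlapped. Gadd45b (0.18, adjusted p = 0.455) and Gadd45g (-0.19, adjusted p = 0.403) were not called.

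The size of the Tet differences depended on the scale. From deposited TPM the log2 ratio of SE line to SA line was 0.39 for Tet1, 0.20 for Tet3 and -0.91 for Tet2, and limma on log2(TPM + 1) called neither Tet1 (adjusted p = 0.255) nor Tet3. Which ranges overlapped also turned round. In TPM the SE and SA lines overlapped for Tet1 (6.98 to 10.96 against 5.33 to 10.07) and for Tet3 (11.3 to 14.6 against 9.49 to 14.1), and did not for Tet2 (4.68 to 5.03 against 7.72 to 11.4). Scaling by library totals alone moved the median of all genes to -0.12, and Tet3 then missed the threshold (adjusted p = 0.0546). Under that scaling 33.7% of called genes were higher in the SE line, against 45.6% with TMM factors. All 8 marker lists given above differed between the lines with these genes, and the part of cell makeup in the differences was not tested. The line and anything else that differed between the litters cannot be told apart.

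The KCl responses of the induced members were also compared between the lines. The log2 response of Gadd45g was larger by 1.66 ± 0.24 in the SE line (adjusted p = 0.0389), a 3.15-fold larger rise, among 0.152% of genes called (27 genes, 24 of them larger in the SE line). That of Gadd45b was larger by 1.53 ± 0.24 and missed the threshold (adjusted p = 0.0617, and 1.35e-05 to 0.333 over 22 alternatives). After KCl, Gadd45b was at 213 to 251 TPM in the 3 SE-line libraries and 52.0 to 86.1 TPM in the 4 SA-line libraries, and Gadd45g at 132 to 172 against 50.5 to 69.5 TPM. Neither gene overlapped between lines after KCl, while basal levels of both overlapped. The call of Gadd45g was lost without either SE_KCl library (adjusted p = 0.19 and 0.0581), either SE_basal library (0.232 and 0.178), either SA_KCl library (0.105 and 0.064), SA_basal library 2 (0.0891), SA-line wild-type KCl library 2 (0.0833), SA-line wild-type basal library 1 (0.0735) or either SE-line wild-type library (0.0653 and 0.0634). Its log2 value stayed between 1.52 and 1.80 in all these fits. Gadd45b was called in 7 of its 22 alternatives. Among them were DESeq2 (adjusted p = 1.35e-05), no filter on low counts (0.00146), limma (0.0148), fits without SA-line wild-type KCl library 1 or 2 (0.0383 and 0.012), and the fit without SA-line wild-type culture 1 (1.30, adjusted p = 0.0367). The other members had line differences in response of -0.17 to 0.51 and were not called.

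**Figure D5:**
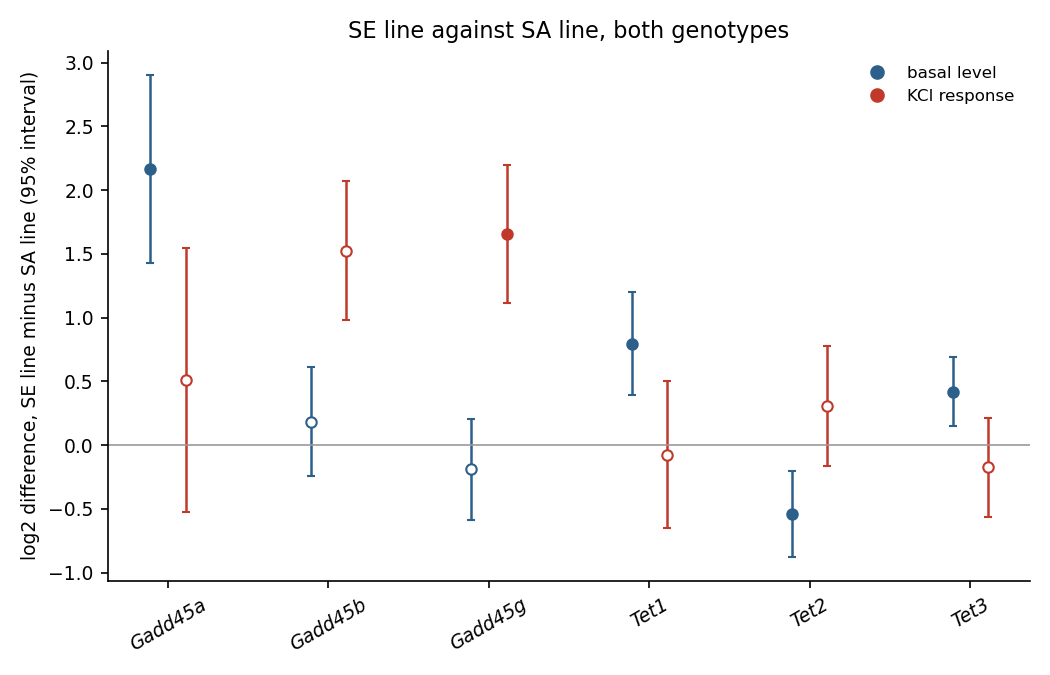
Log2 difference between the SE and SA lines, both genotypes averaged, in basal level (blue) and in KCl response (red), with 95% intervals from the edgeR model; filled points passed an adjusted p of 0.05. Gadd45a and the 3 Tet genes are filled at basal, and Gadd45g is filled for the response, next to an open point of Gadd45b at 1.53.

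Reference genes of neuronal activity rose with Gadd45b and Gadd45g. All 6 (Npas4, Fos, Egr1, Arc, Nr4a1 and Junb) were called in each genotype, with medians of 6.02, 5.88 and 7.52 on the log2 scale. In wild type Npas4, a neuron-specific transcription factor, rose by 8.12 and Nr4a1, an orphan nuclear receptor, by 6.95. Their responses were larger in the SE line for 3 of the 6: Egr1, an early growth response factor (1.83, adjusted p = 0.00302), Nr4a1 (1.17, adjusted p = 0.0283) and Arc. Junb, an AP-1 subunit, had a difference of 1.21 and an adjusted p of 0.0511, and Npas4 one of -0.02. The cells and the lines of these libraries are those of the members, so this is no independent evidence on the members.

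The rest of the demethylation machinery was not called after KCl. Of 19 genes of DNA demethylation and base excision repair 17 passed the filter, and 0 were called in wild type, SA or SE, with medians of -0.01, 0.02 and 0.01. Polb, the repair polymerase, had the lowest p, in SA (0.30, adjusted p = 0.487), followed by Neil1, a glycosylase, with -0.46 in SA. Tdg, the glycosylase that removes oxidised methylcytosine, differed by -0.03 in wild type. Among 14 of 15 writers, readers and TET regulators that passed the filter, 0 were called, with medians of -0.06, -0.07 and 0.06, and the lowest p belonged to Cxxc4 in SA (-0.28) and to Dnmt3b, a de novo methyltransferase, in wild type (-0.35). Bdnf and Fgf1, whose promoter methylation has been tied to Gadd45b in the hippocampus, parted: Bdnf, a neurotrophin, was called in all 3 genotypes (3.26 in wild type, adjusted p = 2.20e-05), and Fgf1 was at 0.16 in wild type.

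Partners and p53 targets were not called after KCl either. For the 11 GADD45 partners the medians were 0.01, 0.08 and 0.05, and the lowest p belonged to Map3k4, the kinase that GADD45 proteins bind and activate, in SE (0.33, adjusted p = 0.391) and Map2k3 in SA (-0.29). For the 13 p53 targets the medians were 0.04, 0.01 and -0.06, led by Sesn1 (-0.35, adjusted p = 0.318) and Trp53inp1 (-0.83, adjusted p = 0.556) in SE. Without SA-line wild-type culture 1 Trp53inp1 was called in SE, as the only gene of these 4 lists. No gene of these 4 lists was called in a comparison of mutant and wild type. The largest median there was -0.54, of the p53 targets in SA against wild type at basal, against 0.01 over all genes. That median rested on SA-line wild-type culture 1, and without it was 0.006, against 0.021 over all genes.

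At basal between the lines none of these 4 lists had a larger share called than the 47.8% of all genes: 8 of 17, 6 of 14, 5 of 11 and 3 of 13 were called. Without SA-line wild-type culture 1, 7 of 17, 6 of 14, 6 of 11 and 6 of 13 were called, among 50.6% of all genes. In that fit the share of the GADD45 partners, 6 of 11, lay slightly above that of all genes. Of the 6 activity reference genes 4 were called (Arc, Egr1, Npas4 and Nr4a1), all higher in the SE line at basal. A list of 6 genes is too short to set this apart from the share of all genes. Bdnf (higher) and Fgf1 (lower) were both called as well. All genes of the 4 lists called with every library are named, the choice being made after their values were seen. In the demethylation and repair list 3 were higher in the SE line (Polb, Smug1 and Taf12) and 5 lower (Apobec1, Apobec3, Ing1, Neil3 and Parp1). Neil3, a glycosylase found in dividing cells, was at 0.271 to 0.274 CPM in the SE line and 3.30 to 7.24 CPM in the SA line. Of the methylation list Dnmt3a (0.53) and Idh1 were higher, and Hells, Idh2, Mbd2 and Uhrf1 were lower. Uhrf1, which guides maintenance methylation at replication, was at 2.84 to 3.33 CPM against 28.1 to 67.5 CPM. Of the partners Map2k4 was higher and Ccnb1, Cdk1, Map2k3 and Pcna were lower, with Cdk1 at 1.74 to 2.44 CPM against 18.9 to 52.97 CPM. Markers of neural progenitors and dividing cells fell in the SE line for 5 of 6 genes, Mki67 and Top2a among them, while Eomes was higher. Of the 13 p53 targets Bbc3 (1.11), Sesn2 (1.48) and Aen (0.49) were higher in the SE line, and the other 10 did not pass the test.

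The genes whose pattern was most like each member's were named by Pearson's r of log2 CPM over the 14 libraries after each line's mean was removed, among 13142 genes. For genes that rose after KCl this measure weighs the response heavily, and the libraries share cultures and cell makeup. Within the SA line, wild-type culture 1 held the highest Gadd45a (5.61 and 7.83 CPM) and the lowest Tet3 (62.6 and 67.5 CPM). No r was computed without that culture, so its part in these lists was not tested. Gadd45b was most like Egr1 (0.996), Arc (0.995), Junb (0.994), Sik1 (0.994) and Spty2d1 (0.994). Gadd45g was most like Erf (0.997), Irf2bp2 (0.993), Tob2 (0.993), Maff (0.991) and Dusp6 (0.990), and its r with Gadd45b was 0.984. Gadd45a was most like Otx1 (0.970), Crtap (0.968), Amotl2 (0.954), Vegfa (0.951) and Mthfd1 (0.949), and its r with Gadd45b was 0.464. For Tet1 the closest were Smg1 (0.989), Mindy2 (0.979), Fat3 (0.974), Ash1l (0.972) and Zfp704 (0.970), and for Tet2 they were Mdm4 (0.980), Nin (0.964), Mtx3 (0.950), Golgb1 (0.940) and Rlim (0.935). Tet3 was most like Pcdhb5 (0.947), Plxna4 (0.926), Kmt2d (0.926), Pdpr (0.917) and Kif1b (0.913). Between members, Tet1 had an r of 0.745 with Tet2 and 0.629 with Tet3, and Tet3 had one of -0.755 with Gadd45a.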

How the data were processed

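Total RNA of 14 libraries was sequenced. Per the submitters' processing notes the tool was kallisto 0.43.1 and the build GRCm38 (mm10). The authors deposited estimated counts (65.6% of nonzero gene values not whole) and TPM, by transcript and by gene symbol. Reads of near-identical sequences were split by kallisto's model, and strand handling is not stated in the labels. Estimated counts were rounded and tested with edgeR 4.0.16 in R 4.3.3 (filterByExpr, TMM, quasi-likelihood model with 8 group means on all 14 libraries, 6 residual degrees of freedom). The edgeR test was first tested on simulated data. Wild type pooled its 3 cultures equally. Calls needed a Benjamini-Hochberg adjusted p under 0.05, with 17732 genes adjusted together. Every adjusted p is from this test unless DESeq2 1.42.0, limma 3.58.1, transcripts, or another filter, scaling, block or set of libraries is named. Intervals cover 95%.

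The members and lists were chosen with earlier results of these data known. Named were the 6 members, per list up to 4 called genes or else the 2 with the lowest p, 5 like genes per member, and transcripts above 5% of TPM. Arc, Tdg, Gadd45g-202 and the list and marker genes of the line comparison were named after their values were seen. Promoter windows are from RefSeq (GRCm38.p6), with a match for all 6 members. The labels do not say that equal replicate numbers mark a shared culture, so the main test did not pair libraries, and 23 alternatives were tried at most per comparison.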

Additional observations from a re-analysis of the deposited data

Results flagged for a closer look

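The difference in KCl response between the SE and SA lines was picked out for Gadd45g, because a test of the difference itself passed the threshold: 1.66 on the log2 scale, with a higher TPM after KCl in all 3 SE-line libraries than in the 4 SA-line libraries. Its adjusted p of 0.0389 passed in 10 of 22 alternatives, with a largest value of 0.232. The lines also differed in the cell type markers given above, and their part in this difference was not tested.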

How the results depend on the processing

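Of 66 results, each a member in a comparison, none changed sign while called. The calls of Gadd45b and Gadd45g after KCl in the 3 genotypes held in all 23 alternatives, and no member was called for a mutant against wild type or for a mutant's difference in response in any of 21 to 23. Gadd45a between the lines at basal held in all 21, Tet1 and Tet2 in 20 and Tet3 in 16. Tet2 was lost without SE_basal library 2 (adjusted p = 0.0909). At basal between the lines 4 members were called, and 2 with limma on log2(TPM + 1). For the line difference in response 1 member was called. That number was 0 with library totals only and 2 with no filter, DESeq2, limma or, added after seeing the data, without SA-line wild-type culture 1. It ran from 0 to 2 when each library was left out. The causes were not tested. Genes called over the whole table moved by more than 1.5 times after KCl in wild type (29 with wild-type libraries alone to 829, against 250), in SA (67 to 613, against 150) and in SE (112 to 1024, against 295), and in the line difference in response (12 to 146, against 27). Leaving out 1 library was enough for this in wild type (160, 135 and 136 without the SA-line KCl library 2 and the SE-line basal and KCl libraries), in SA (68 to 78 without any SA library), in SE (112 to 144 without any SE library) and in the line difference (12, 13 and 17 without SE_basal 1, SE_basal 2 and SE_KCl 1, and 42 without WT_SA_basal 2). From 0, they reached 119 for SA after KCl, and 10, 31 and 4 for SE at basal, after KCl and in response when only SE-line libraries were fitted. With the other transcript filter 4, 2 and 4 member transcripts were called.

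Same-numbered libraries deviated from group means together in SA (r = 0.422) and in the SA-line wild type (0.67), not in SE (-0.0512), so libraries were not taken as paired. With a replicate block, 3 members were called after KCl in wild type (Gadd45a added, adjusted p = 0.00234), 3 in SA (Tet1 added, 0.0253), 3 in SE (Gadd45a added, 0.00162), and 2 in the line difference in response (Gadd45b added, 0.00113). It called 829, 613 and 1024 genes after KCl and 146 in the line difference, and no member in the 6 comparisons with wild type. No block was fitted for the lines at basal. The SE comparisons with wild type have no value without the wild-type library they use. Gadd45a had as few as 53.03 counts in a library, which limits its precision most.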
